A study of Mus musculus with 17 samples.

Results

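The 10 adipokine genes looked at here were *Adipoq*, *Lep*, *Retn*, *Rbp4*, *Apln*, *Nampt*, *Rarres2*, *Sfrp5*, *Serpina12* and *Fgf21*. These genes were taken by name from 55401 gene identifiers and not by a rule on measured values, but earlier results of these data were known. They were measured in visceral fat that surrounds the gonads, the perigonadal white adipose tissue (pWAT), in 1 RNA-seq library per mouse. There were 10 females, 5 WT and 5 with the *U90926* knockout (U9-KO), and 7 males, 3 WT and 4 U9-KO, all on the C57BL/6J background and fed standard chow. U9-KO mice lack the whole gene of the long non-coding RNA *U90926* in every cell, and WT mice were their littermates from crosses of heterozygous parents. The study's methods put collection at 16 weeks of age, and its overview of the screens puts it at 19 weeks. Whole tissue was used, so a lower level in fat cells and a smaller share of fat cells cannot be told apart. *U90926* had a normalized count of 1 in 2 WT mice, female 3 and male 2, and of 0 in the other 15, so these counts could not check the genotype labels.

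Adipokines are proteins that fat tissue secretes into the blood or to neighbouring cells. Leptin reports fat stores to the brain and lowers food intake, and adiponectin raises insulin sensitivity and is made almost entirely by mature fat cells. Others act on glucose handling (resistin and retinol binding protein 4 in mice), on immune cells (chemerin), on blood vessels (apelin) or on WNT signals within the tissue (SFRP5), and several change with body fat.

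The values are normalized counts, that is, reads per gene scaled by the authors with 1 size factor per library and then rounded, so the depth in reads is unknown. They summed to between 20243688 and 28620744 per library, with U9-KO female 3 at the top and the next library at 24033629. A list of 18 fat cell genes, led by *Car3*, was detected in all 4 groups with a mean of at least 10 for 18 of 18 genes, and summed to between 492328 and 1097950 in females and between 1158682 and 1705603 in males. A list of 16 ovary and oviduct genes, led by *Cyp11a1*, summed to 127597 in WT female 4 and 141312 in U9-KO female 1, to between 4682 and 38432 in the other 8 females and to between 291 and 531 in males. These 2 libraries, 1 of each genotype, are called the ovary-rich females below, and results that rest on them are given with and without them. A list of 10 epididymis and testis genes summed to between 2 and 9 in males, with *Crisp1*, *Defb41*, *Lcn5*, *Spag11b* and *Gpx5* at 0 in all 7, so these genes were near the floor there. The same list, led by *Cst8*, summed to between 19 and 258 in WT females and between 45 and 717 in U9-KO females. It thus did not mark male tissue alone.

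The first question was whether loss of *U90926* goes with a change of any adipokine gene. In limma's test on log2(normalized count + 1), with Benjamini-Hochberg adjustment over all genes tested, 0 of 10 members passed an adjusted p of 0.05 in females, where 0 of 24825 genes did (0%), and 0 of the 9 tested members did so in males, where 0 of 21930 genes did (0%). An unadjusted p under 0.05 was also found for 0 members in either sex, against 2.23% of all genes in females and 7.60% in males. Leaving out 1 female brought 1 member below 0.05 before adjustment in 3 of 10 fits, *Apln* without WT female 4 (2.05% of all genes) or U9-KO female 2 (1.84%) and *Rarres2* without U9-KO female 4 (5.00%), and 0 after it. WT and U9-KO mice overlapped in their values for 10 of 10 members in both sexes, whereas 0.238% of all genes did not overlap in females and 7.60% did not in males. Over the 10 members in females the median log2 fold change of U9-KO over WT was 0.31, with 7 positive and 3 negative values, and 0.03 over 9 members in males, with 5 positive and 4 negative. The median of all genes was 0.00 in both sexes. A missed threshold does not show equal levels, so the interval of each difference is given below.

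**Figure D1:**
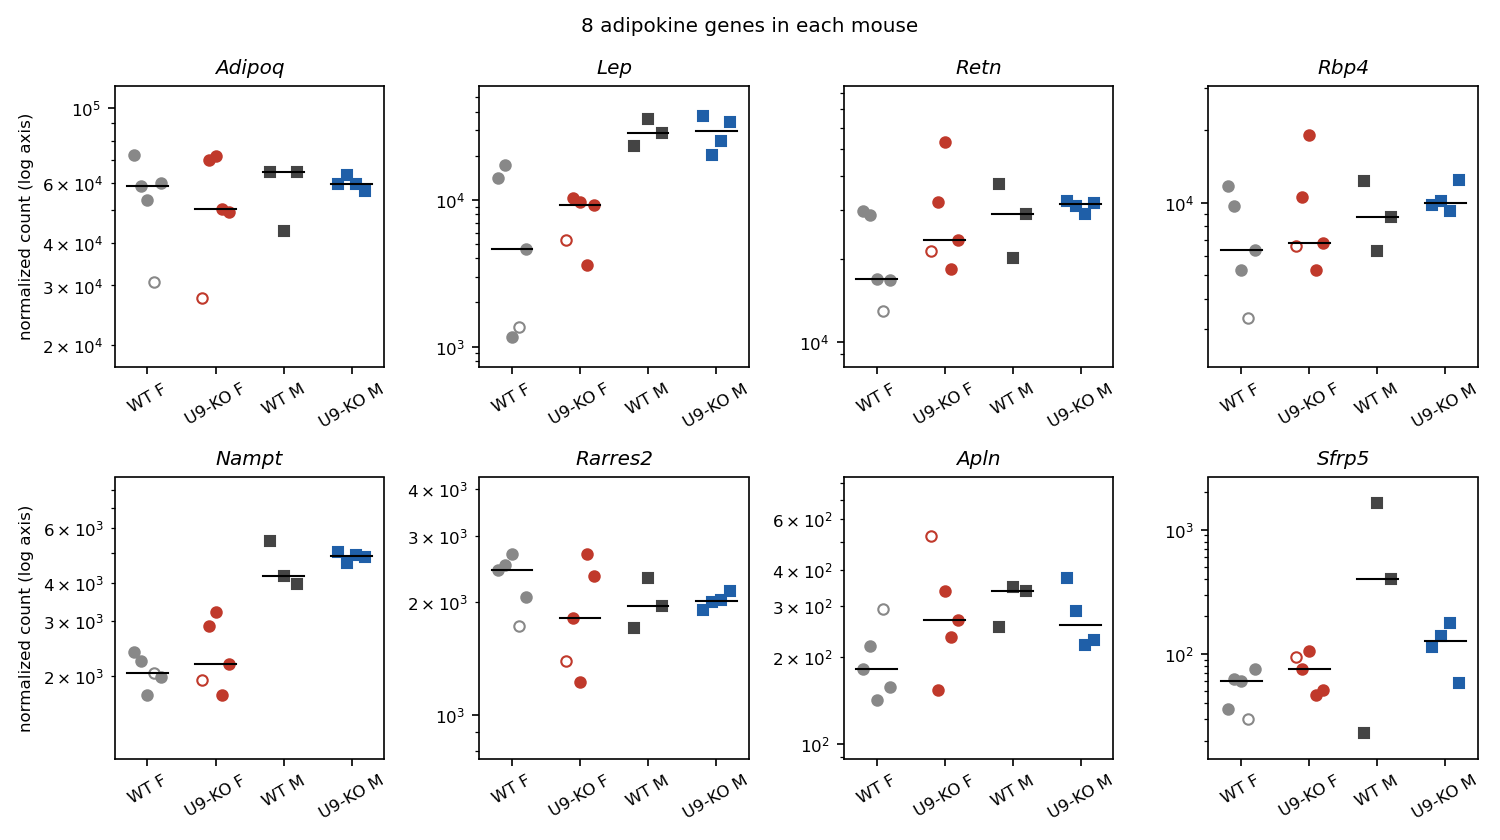
Normalized count (log axis) of the 8 adipokine genes with a mean of at least 10 in every group, 1 point per mouse, for WT and U9-KO females (circles) and males (squares). Horizontal lines are group medians and open circles are the ovary-rich females, WT female 4 and U9-KO female 1. WT and U9-KO points overlap in every panel, and all males lie above all females for *Lep* and *Nampt* only.

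*Adipoq* (ENSMUSG00000022878, GRCm38 chromosome 16, 23146536 to 23158028, plus strand) encodes adiponectin and had the highest level per kb of the 10 in all 4 groups. Its normalized counts were 72328, 58640, 53506, 30644 and 60176 in WT females 1 to 5 and 27618, 70236, 71968, 50319 and 49174 in U9-KO females 1 to 5. The lowest mouse of each female group was an ovary-rich one, and the other 8 females lay between 49174 and 72328. In males, the counts were 64483, 43506 and 64789 in WT and 59731, 63341, 59648 and 56789 in U9-KO mice. The U9-KO males were close to each other, with a coefficient of variation of 4.48% against 21.2% in WT males, and all 4 lay within the WT range. The difference of U9-KO over WT in limma's fit was -0.06 on the log2 scale in females (SE 0.29, 95% interval -0.70 to 0.59, adjusted p = 1), and 0.08 in males (SE 0.16, interval -0.28 to 0.44, adjusted p = 0.910). Without the ovary-rich females it was -0.03 (SE 0.19).

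*Lep* (ENSMUSG00000059201, chromosome 6, 29060220 to 29073877, plus strand) encodes leptin and varied most among WT females of the 8 abundant members. WT females 1 to 5 had normalized counts of 14039, 17220, 1160, 1351 and 4641, and U9-KO females had 5362, 10245, 9727, 3605 and 9229. WT females spanned 14.8-fold and U9-KO females 2.84-fold, and all 5 U9-KO values lay inside the WT range. WT males had 23259, 35738 and 28407 and U9-KO males had 37426, 20328, 25196 and 33761. The group means were nearly the same within each sex, at 7682 ± 7471 (SD, n = 5) in WT and 7634 ± 2964 (SD, n = 5) in U9-KO females and at 29135 ± 6271 (SD, n = 3) and 29178 ± 7815 (SD, n = 4) in males. On the log2 scale, where the 2 low WT females weigh more, the female difference was 0.67 (SE 0.73, interval -0.92 to 2.26, adjusted p = 1), which spans from 0.527-fold to 4.78-fold. That value fell to 0.34 (SE 0.77) without the ovary-rich females and to 0.18 without WT female 3, and was 1.15 without WT female 2. In males it was -0.02 (SE 0.22, interval -0.50 to 0.47, adjusted p = 0.991).

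*Retn* (ENSMUSG00000012705, chromosome 8, 3655770 to 3660110, plus strand) encodes resistin, which in mice comes from fat cells and opposes insulin. The female mice had 29763, 28939, 16925, 12942 and 16724 normalized counts in the WT group and 21400, 32143, 53107, 18372 and 23411 in the U9-KO group. U9-KO female 3, the library with the highest summed counts, was the highest of all 17 mice. WT males had 37290, 20211 and 29236, and U9-KO males had 32546, 31122, 29015 and 32030, a coefficient of variation of 5.00% that lay within the WT range. In females the log2 fold change was 0.46 (SE 0.31, interval -0.23 to 1.15, adjusted p = 1) and became 0.23 without U9-KO female 3. The male value was 0.15 (SE 0.18, interval -0.25 to 0.55, adjusted p = 0.841), with -0.08 when WT male 2 was left out and 0.36 when WT male 1 was.

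*Rbp4* (ENSMUSG00000024990, chromosome 19, 38116629 to 38125281, minus strand) encodes retinol binding protein 4, the carrier of vitamin A in blood. Its normalized counts were 11740, 9676, 5237, 3324 and 6367 in WT females, against 6641, 10526, 19068, 5231 and 6815 in the U9-KO group. The order of the mice was nearly that of *Retn*, again with U9-KO female 3 at the top and WT female 4 at the bottom. WT males had 12261, 6328 and 8733, and U9-KO males had 9819, 10199, 9242 and 12411. On the log2 scale U9-KO over WT was 0.38 (SE 0.39, interval -0.47 to 1.24, adjusted p = 1) for females, or 0.10 without U9-KO female 3, and 0.24 (SE 0.19, interval -0.19 to 0.67, adjusted p = 0.767) for males. The female value was 0.23 (SE 0.40) without the ovary-rich females, and the male one was 0.0007 without WT male 2 and 0.48 without WT male 1.

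The stretches just before the transcription start of the 4 most abundant members per kb are shown because *Retn* and *Rbp4* moved together over the mice and *Adipoq* and *Lep* did not follow them as closely (described below). Each is the 250 bases before the RefSeq start on GRCm38.p6, 5′ to 3′ on the strand of the gene, and 9 of the 10 members had such an entry, *Rarres2* being the other. For *Retn* it is chr8:3655520-3655769 (plus), for *Rbp4* chr19:38125322-38125571 (minus, the upstream one of 2 listed starts), for *Adipoq* chr16:23146286-23146535 (plus) and for *Lep* chr6:29059971-29060220 (plus). Capitals mark matches, on either strand, to the CCAAT box or to the GC box spelled out under the sequences.
Retn: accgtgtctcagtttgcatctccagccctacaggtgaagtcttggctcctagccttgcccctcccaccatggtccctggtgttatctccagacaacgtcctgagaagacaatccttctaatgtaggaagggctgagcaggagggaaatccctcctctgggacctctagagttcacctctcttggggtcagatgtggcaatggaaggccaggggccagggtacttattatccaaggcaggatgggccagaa
Rbp4: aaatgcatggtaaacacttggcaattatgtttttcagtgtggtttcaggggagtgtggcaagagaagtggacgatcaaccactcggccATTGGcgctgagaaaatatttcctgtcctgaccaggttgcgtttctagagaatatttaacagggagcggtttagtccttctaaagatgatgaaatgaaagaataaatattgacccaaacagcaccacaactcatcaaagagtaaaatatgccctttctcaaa
Adipoq: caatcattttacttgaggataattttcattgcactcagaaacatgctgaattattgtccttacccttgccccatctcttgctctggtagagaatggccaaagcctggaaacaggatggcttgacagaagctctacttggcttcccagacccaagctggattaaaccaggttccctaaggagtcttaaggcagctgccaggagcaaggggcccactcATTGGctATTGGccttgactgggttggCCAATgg
Lep: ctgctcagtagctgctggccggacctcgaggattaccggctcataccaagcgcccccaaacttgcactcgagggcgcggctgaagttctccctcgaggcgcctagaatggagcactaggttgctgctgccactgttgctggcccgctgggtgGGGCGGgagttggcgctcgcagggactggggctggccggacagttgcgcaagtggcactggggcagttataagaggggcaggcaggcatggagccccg
The motifs searched on both strands were a TATA box (TATAAA), the CCAAT box, an E-box (CACGTG), a GC box (GGGCGG) and a sterol element (TCACNCCAC), none of which overlapped another in these 4 windows. The CCAAT box was found 3 times before *Adipoq* and 1 time before *Rbp4*, and 33.8% of the 32851 promoter windows of this length in the table held it. The GC box was found 1 time before *Lep*, and 32.7% of the windows held it. The other 3 motifs were not in these 4 windows and were in 12.4% (TATA box), 6.02% (E-box) and 1.05% (sterol element) of all windows. The *Retn* window held none of the 5 as written.

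*Nampt* (ENSMUSG00000020572, chromosome 12, 32819545 to 32853349, plus strand) encodes the enzyme that limits NAD salvage, which is also secreted and known as visfatin. In females the normalized counts were 2389, 2234, 1728, 2049 and 1981 for WT and 1940, 2906, 3224, 1734 and 2180 for U9-KO mice. With a coefficient of variation of 12.1% it was the steadiest member in WT females. WT males had 5476, 4200 and 3959, and U9-KO males had 5047, 4634, 4938 and 4834, so every male lay above every female. Log2 fold changes of U9-KO over WT were 0.18 for females (SE 0.17, interval -0.19 to 0.54, adjusted p = 1), and 0.11 for males (SE 0.11, interval -0.13 to 0.35, adjusted p = 0.803). Over both sexes the intervals lay between 0.874-fold and 1.46-fold.

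*Rarres2* (ENSMUSG00000009281, chromosome 6, 48569696 to 48572789, minus strand) encodes chemerin, which attracts immune cells that bear *Cmklr1*. It shares 892 bases of exon with *Lrrc61* on the other strand, and since the strand setting of the counting is not given in the sources used here, reads of the 2 genes may not be told apart. Its normalized counts were 2429, 2508, 2686, 1727 and 2065 in WT females, against 1390, 1809, 1222, 2689 and 2353 in the U9-KO group. U9-KO females 1 and 3 lay below all 5 WT females and U9-KO female 2 below 4 of them, while U9-KO female 4 was the highest female. WT males had 1701, 2324 and 1958, and U9-KO males had 1906, 1997, 2022 and 2145, a coefficient of variation of 4.88%. Females had a log2 fold change of -0.32 (SE 0.21, interval -0.78 to 0.15, adjusted p = 1), which ran from -0.46 without U9-KO female 4 to -0.18 without U9-KO female 3, and males one of 0.03 (SE 0.10, interval -0.20 to 0.26, adjusted p = 0.957).

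*Apln* (ENSMUSG00000037010, chromosome X, 48025146 to 48034853, minus strand) encodes apelin, a peptide that acts on blood vessels and the heart through *Aplnr* and that endothelial cells also make. WT females had 181, 218, 142, 292 and 157 normalized counts, and U9-KO females had 522, 154, 339, 234 and 269. The highest mouse of each group was an ovary-rich one, in the reverse of *Adipoq*. U9-KO over WT was 0.55 on the log2 scale in females (SE 0.30, interval -0.11 to 1.20, adjusted p = 1), and its unadjusted p of 0.0940 was the smallest of the members in females. It was 0.47 (SE 0.24) without the ovary-rich females, 0.32 without U9-KO female 1 and 0.76 without U9-KO female 2. WT males had 253, 350 and 338 and U9-KO males 375, 288, 219 and 228, which gave -0.20 on the log2 scale (SE 0.19, interval -0.63 to 0.24, adjusted p = 0.807).

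*Sfrp5* (ENSMUSG00000018822, chromosome 19, 42197971 to 42202252, minus strand) encodes a secreted protein that binds WNT ligands such as WNT5A. It was low in females, with normalized counts of 36, 63, 61, 30 and 76 in WT and 95, 76, 106, 47 and 51 in U9-KO mice. Their log2 fold change came to 0.50 (SE 0.32, interval -0.20 to 1.19, adjusted p = 1), and to 0.22 (SE 0.32) without the ovary-rich females. WT males had 23, 1640 and 398, a span of 71.3-fold and the widest of any member in any group, and U9-KO males had 114, 140, 178 and 58. All 4 U9-KO males lay between WT male 1 and the other two WT males. The log2 fold change of -1.13 (SE 1.10, interval -3.59 to 1.33, adjusted p = 0.803) turned to 0.23 without WT male 2 and was -2.82 without WT male 1, so single WT males decided it.

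*Serpina12* (ENSMUSG00000041567, chromosome 12, 104028769 to 104044443, minus strand) encodes vaspin, a protease inhibitor, and *Fgf21* (ENSMUSG00000030827, chromosome 7, 45613886 to 45615490, minus strand) encodes a hormone made mainly by the liver. Both were at or near the limit of detection. WT females had 8, 7, 1, 1 and 7 counts of *Serpina12* and U9-KO females 4, 3, 11, 0 and 4, with 0, 2 and 0 in WT males and 0, 0, 0 and 1 in U9-KO males, and it did not pass the filter on low values in males. For *Fgf21* WT females had 2, 1, 1, 1 and 0 and U9-KO females 2, 0, 1, 2 and 2, with 3, 3 and 1 in WT males and 2, 6, 0 and 0 in U9-KO males. At this depth no difference was detectable for either. In females the intervals of the normalized count + 1 ran from 0.304-fold to 2.54-fold for *Serpina12* and from 0.594-fold to 2.33-fold for *Fgf21*. At such low counts the added 1 narrows them, so they do not bound the fold change of the genes. With 0.5 added instead, the SE rose from 0.70 to 0.86 for *Serpina12* and from 0.45 to 0.64 for *Fgf21*.

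**Figure D2:**
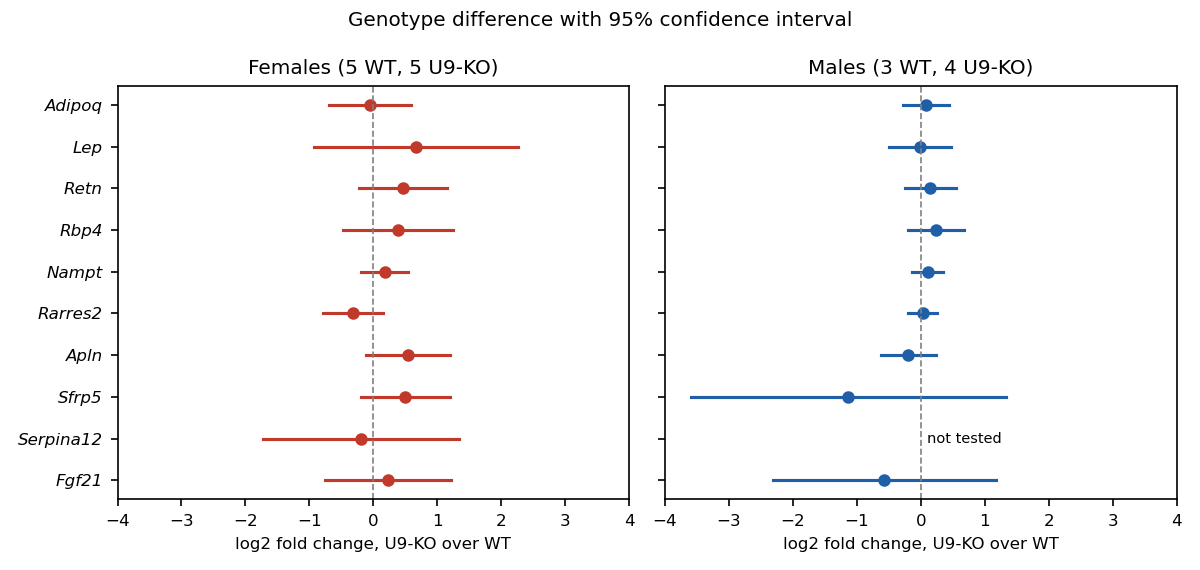
Log2 fold change of U9-KO over WT for each adipokine gene in females (left) and males (right), with points for the estimate and lines for its 95% confidence interval in limma's fit. Every interval includes 0, the narrowest are those of *Nampt* and *Rarres2* in males, and *Serpina12* was not tested in males.

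Whether the genotype effect differed between the sexes was tested with all 4 groups in 1 fit. After adjustment 0 of 10 members and 0 of 26289 genes (0%) passed 0.05, and before it 0 members did, against 3.46% of all genes, or 1 member in 3 of 17 fits with a single mouse left out. The smallest unadjusted p of the members was 0.0931 in limma's test, for *Apln*, whose log2 fold change was lower by 0.74 (SE 0.42, adjusted p = 1) in males than in females. That of *Sfrp5* differed by -1.63 (SE 1.15, adjusted p = 1), and by -0.27 without WT male 2 and -3.32 without WT male 1.

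WT male 1 also decided how the male comparison looked over all genes. Without it, limma called 71 of 21467 genes (0.331%) at an adjusted p of 0.05, and 15.6% had an unadjusted p below that value. Of the members, 0 of 9 were called in that fit and 4 were below 0.05 before adjustment. These were *Sfrp5* (log2 fold change -2.82, adjusted p = 0.0692), *Nampt* (0.25, adjusted p = 0.154), *Rbp4* (0.48, adjusted p = 0.169) and *Retn* (0.36, adjusted p = 0.266). WT male 1 had the highest *Retn* and *Nampt* and the lowest *Sfrp5* of the 7 males, so the WT group was then WT males 2 and 3. Over all 7 males, the summed counts of 10 macrophage genes were 25503 to 40751 in WT and 19041 to 24310 in U9-KO mice. Those of 10 lymphocyte genes were 777 to 2364 and 522 to 1250. In the fit of all 7 males 0 of 10 genes were called in either list. Their part in these values was not tested.

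Levels were compared between the genes per kb of exon. In WT females the mean normalized counts per kb were 39869 for *Adipoq*, 13337 for *Retn*, 5412 for *Rbp4*, 2290 for *Lep*, 860 for *Rarres2*, 411 for *Nampt*, 62.9 for *Apln* and 28.0 for *Sfrp5*, with *Serpina12* and *Fgf21* at 1.30 and 1.05. The ranges over the 5 mice did not overlap between *Adipoq* and *Retn*, whereas *Retn*, *Rbp4* and *Lep* each overlapped the next in the order. From *Rarres2* down to *Serpina12* no range overlapped the next, and those of *Serpina12* and *Fgf21* overlapped. The order of the first 8 was the same in U9-KO females, where the ranges of *Adipoq* and *Retn* overlapped. In WT males *Lep* followed *Retn* at 8687 per kb, ahead of *Rbp4* at 6781, and in U9-KO males it did so at 8699 against 7757, but the ranges of these 2 genes overlapped in both male groups. *Nampt* came before *Rarres2* in both male groups, in the reverse of the females, and the ranges of the 2 overlapped in WT males and not in U9-KO males.

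Levels in males and females were set side by side without a test, because each sex seems to have been given its own set of size factors and the median male library lay 0.09 below the median female one on the log2 scale. *Lep* lay between 1160 and 17220 in the 10 females and between 20328 and 37426 in the 7 males, a 3.81-fold higher mean. For *Nampt* the ranges were 1728 to 3224 and 3959 to 5476, a 2.11-fold higher mean. These were the 2 of 10 members with all males above all females, which held for 2.66% of all 26289 genes, and 0 of 10 had all males below all females, which held for 9.12%. With TMM scaling over all 17 libraries the same 2 members were separated, at 4.15-fold and 2.30-fold, with 4.97% of all genes above and 6.40% below. The other 8 overlapped, with male to female ratios of the means from 0.962 for *Rarres2* to 1.19 for *Retn* among the abundant ones other than *Sfrp5*. With TMM scaling these ratios were 1.05 for *Rarres2*, which thus turned above 1, and 1.30 for *Retn*. The ratio of 5.69 for *Sfrp5* (6.23 with TMM scaling) rested on WT male 2, as the median female had 62 and the median male 140. The fat cell list was also higher in males, as given above, and its part in these levels was not tested.

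The ratio of *Lep* to *Adipoq* within a library does not depend on the size factor. It lay between 0.0217 and 0.294 in females and between 0.321 and 0.821 in males, with no overlap between the sexes. Within each sex WT and U9-KO mice overlapped, with means of 0.126 ± 0.115 (SD, n = 5) and 0.147 ± 0.0492 (SD, n = 5) in females and 0.540 ± 0.247 (SD, n = 3) and 0.491 ± 0.145 (SD, n = 4) in males. The ratio of *Retn* to *Rbp4* was far steadier and lay between 2.54 and 3.89 in all 17 mice.

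The members were then set against the adipocyte score, the mean log2(normalized count + 1) of the 18 fat cell genes, none of which is a member. In whole tissue this score does not separate the share of fat cells from the level of these genes within them. The 8 abundant members were correlated with this score and with an ovary score made in the same way, with genotypes pooled because a single genotype has fewer than 6 mice of a sex. In females *Adipoq* (Pearson's r = 0.917, Spearman's rho = 0.915), *Rbp4* (r = 0.912, rho = 0.891) and *Retn* (r = 0.861, rho = 0.830) rose with the adipocyte score, with permutation p of 0.00024, 0.00036 and 0.00154 for r and adjusted p of 0.00288, 0.00288 and 0.00821 over 16 relations (for rho, permutation p of 0.00051, 0.00127 and 0.00477). Without the 2 mice farthest from the median score r was 0.921, 0.752 and 0.643. Of all 17774 genes with a mean of at least 10 in females, 12.3% had an r above 0.7 with this score. So did *Adipoq*, *Rbp4*, *Retn*, *Nampt* and *Lep* among the 8 abundant members. The share of all genes past an adjusted p of 0.05 was not computed. *Nampt* (r = 0.738, adjusted p = 0.0504 in the permutation test) and *Lep* (r = 0.705, adjusted p = 0.0594) missed the threshold by r. By rho both passed it, at 0.806 for *Nampt* (adjusted p = 0.0314 in the permutation test) and 0.770 for *Lep* (adjusted p = 0.0372), and with a pseudocount of 0.5 *Nampt* also passed by r. *Apln*, *Rarres2* and *Sfrp5* had r of -0.307, -0.077 and 0.401.

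The ovary score separated the 2 ovary-rich females, at 9.93 and 9.61, from the other 8, at 5.83 to 7.38, so no pooled relation is read from it. Within the other 8 females r with the ovary score was -0.461 for *Adipoq* (exact permutation p = 0.240, adjusted p = 0.533) and 0.156 for *Apln* (exact permutation p = 0.710, adjusted p = 0.812), and 0 of 8 members had an adjusted p under 0.05. With the adipocyte score, 5 of 8 members did in these 8 females, by exact permutation tests added after the data were seen. The share of all genes that would do so in these 8 mice was not computed, so whether this count is unusual is not known. *Rbp4* (r = 0.964, adjusted p = 0.00238 by exact permutation), *Nampt* (r = 0.940, adjusted p = 0.00337 by exact permutation), *Retn* (r = 0.915, adjusted p = 0.00979 by exact permutation) and *Adipoq* (r = 0.880, adjusted p = 0.0175 by exact permutation) were positive. *Rarres2* was negative (r = -0.850, adjusted p = 0.0262 by exact permutation), but its rho of -0.714 had an adjusted p of 0.154 by exact permutation. By rho 2 of these 5 passed, *Rbp4* and *Nampt* (both rho = 0.952, adjusted p = 0.00913 by exact permutation), whereas *Adipoq* (0.0571) and *Retn* (0.0615) did not. *Rarres2* was thus lowest where the fat cell genes were highest among these 8, while its 2 ovary-rich mice had both low *Rarres2* and low scores.

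**Figure D3:**
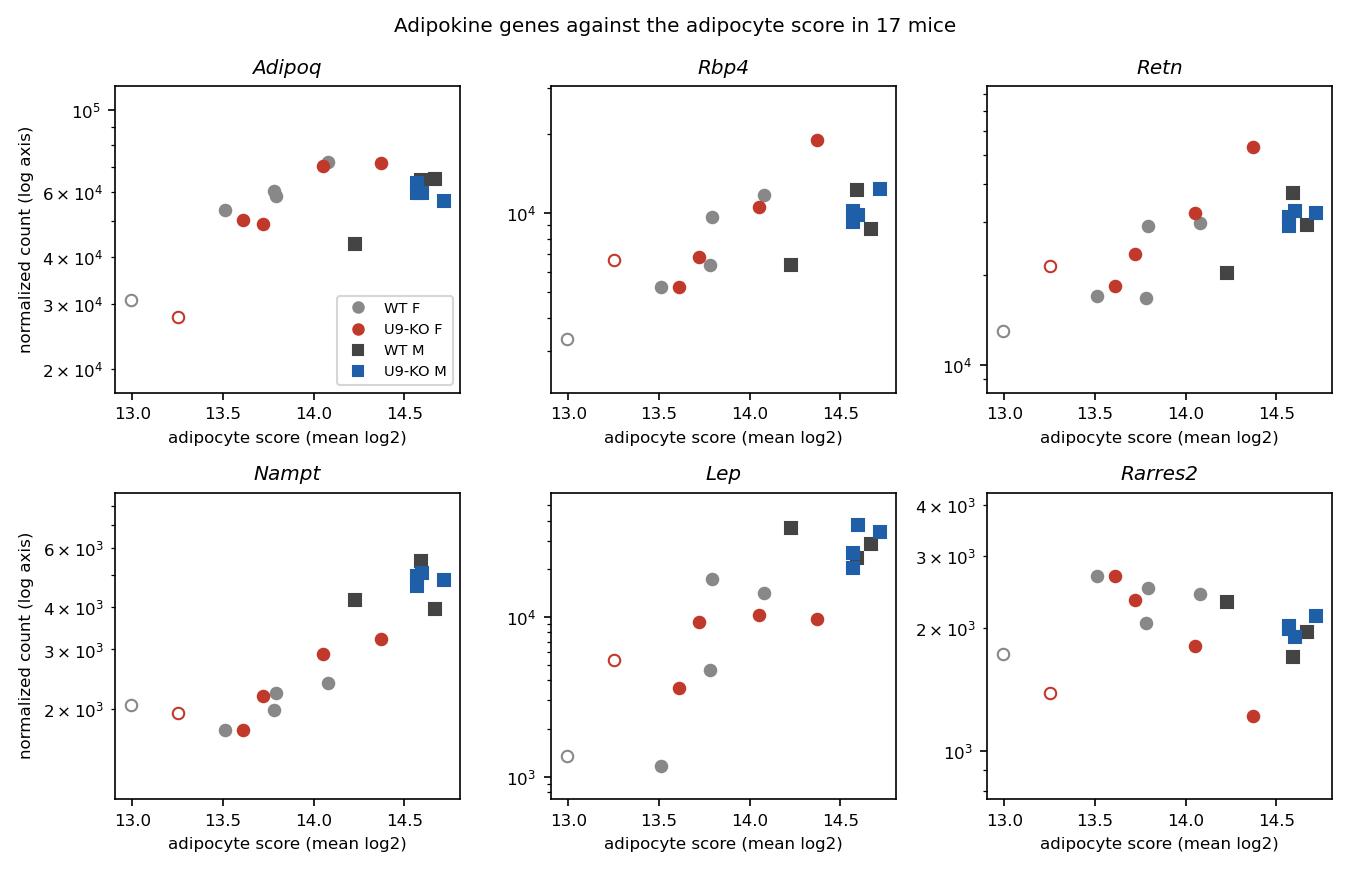
Normalized count (log axis) of 6 adipokine genes against the adipocyte score (mean log2 of 18 fat cell genes) in 17 mice, females as circles and males as squares, with open circles for the ovary-rich females. *Adipoq*, *Rbp4* and *Retn* rise with the score in females (r = 0.917, 0.912 and 0.861). The males other than WT male 2 lie at the right with little spread in the score. WT male 2, at 14.23, lies to the left of U9-KO female 3, at 14.37.

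In males 0 of 16 relations with the adipocyte and epididymis scores had an adjusted p under 0.05 in the exact permutation test, and the smallest adjusted p was 0.334. The genes of the epididymis score summed to 2 to 8 in WT and 6 to 9 in U9-KO males. At such counts its 8 relations could not show a link, so nothing is read from them, although they count in the adjustment. The adipocyte score lay between 14.57 and 14.72 in 6 of the 7 males and at 14.23 in WT male 2, which also had the lowest *Adipoq*, *Retn* and *Rbp4* and the highest *Sfrp5* of the males. Without WT male 2 and the next most distant mouse, r of *Retn* and *Rbp4* with the score went from 0.817 and 0.807 to -0.294 and -0.511, so both rested on those mice.

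Pairs of members were compared next, with 28 pairs in each sex, a family added after the data were seen. The share of correlated pairs over all genes was not computed in either sex. In females 5 pairs had an adjusted p under 0.05 in the permutation test and all 5 were positive. Their genes, *Retn*, *Rbp4*, *Nampt* and *Lep*, had r of 0.861, 0.912, 0.738 and 0.705 with the adipocyte score, whose part in these pairs was not tested. *Retn* with *Rbp4* had r = 0.974 (permutation p = 5e-05, adjusted p = 0.0014, rho = 0.939 with p = 0.00021, r without 2 mice 0.932), and it stayed past the threshold with each female left out in turn, with r from 0.956 to 0.989. The others were *Retn* with *Nampt* (r = 0.860, rho = 0.806, adjusted p = 0.0164), *Rbp4* with *Nampt* (r = 0.825, rho = 0.842, adjusted p = 0.0287), *Lep* with *Rbp4* (r = 0.792, rho = 0.855, adjusted p = 0.0428) and *Lep* with *Retn* (r = 0.768, rho = 0.818, adjusted p = 0.0474), and each of these 4 lost the threshold in at least 2 of the 10 fits that left out 1 female. Their raw permutation p were 0.00117, 0.00307, 0.00612 and 0.00847, and r without 2 mice was 0.890, 0.886, 0.678 and 0.656. *Adipoq* with *Lep* had r = 0.529 (permutation p = 0.106, adjusted p = 0.214).

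In males *Retn* with *Rbp4* had r = 0.930 (exact permutation p = 0.00437, adjusted p = 0.0407, rho = 0.786). *Sfrp5* ran the other way, with r = -0.967 against *Rbp4* (exact permutation p = 0.000992, adjusted p = 0.0194, rho = -0.929) and r = -0.943 against *Retn* (exact permutation p = 0.00139, adjusted p = 0.0194, rho = -0.929). Without the 2 mice farthest from the median these were 0.692, -0.976 and -0.781. By rho, whose smallest adjusted p was 0.0944 in the exact permutation test, 0 of 28 pairs passed. With any of WT males 1, 2 and 3 or U9-KO males 2 and 3 left out, 0 pairs passed, although r of *Rbp4* with *Sfrp5* stayed between -0.979 and -0.924 with each male left out. In females *Rbp4* with *Sfrp5* had r = 0.531 (permutation p = 0.115, adjusted p = 0.214), and the difference between the sexes was not tested.

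**Figure D4:**
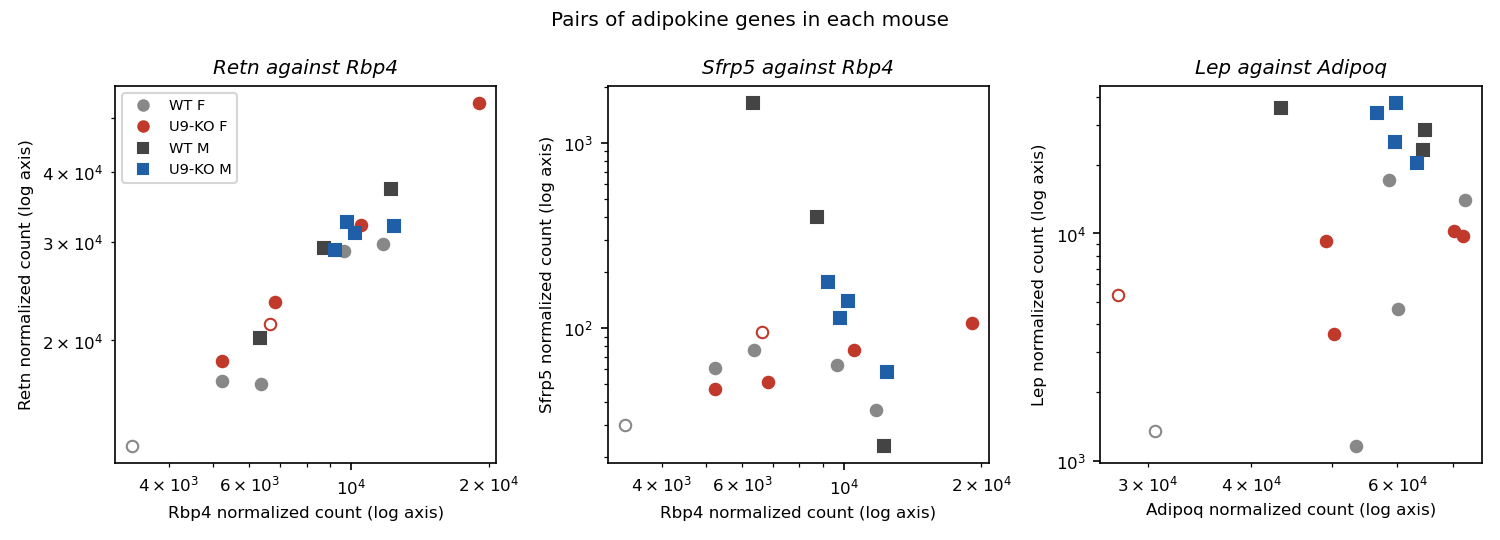
Normalized counts (log axes) of *Retn* against *Rbp4*, *Sfrp5* against *Rbp4* and *Lep* against *Adipoq*, 1 point per mouse, females as circles and males as squares, with open circles for the ovary-rich females. *Retn* and *Rbp4* lie on a line in both sexes, *Sfrp5* runs against *Rbp4* in the males (r = -0.967), and *Lep* separates the sexes where *Adipoq* does not.

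The genes whose pattern was most like that of 4 members were found among 13750 genes with a mean of at least 50, by Pearson's r of the deviations from the group mean over all 17 mice, as a description. For *Adipoq* these included *Adhfe1* (r = 0.971) and *Eif4ebp1* (r = 0.965), a repressor of translation, each with r of at least 0.912 within both sexes. For *Retn* they were *Pccb* (r = 0.979), a subunit of propionyl-CoA carboxylase, *Emc6* (r = 0.978) and *Ccdc25* (r = 0.978), with r from 0.903 to 0.991 within each sex. For *Lep* they were *Trabd2b* (r = 0.969), *Rps6ka3* (r = 0.957), a kinase, and *Pqlc3* (r = 0.949), with r from 0.970 to 0.984 in females and of 0.594, 0.641 and 0.078 in males. The likeness to *Lep* was thus seen in the females, whose range of *Lep* was wide. For *Sfrp5* they were *Slc13a3* (r = 0.917), *Iqgap1* (r = 0.907) and *Mycbp2* (r = 0.881), with r of 0.767, 0.363 and 0.030 in females and from 0.964 to 0.993 in males.

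The genes through which the members act were taken from lists. Of 19 receptors and partners, 17 were tested in each sex and limma called 0 after adjustment. Before it 0 passed 0.05 in females and 4 in males, 3 higher and 1 lower in U9-KO mice, where 3.51% of all genes were higher and 4.09% lower, and their median log2 fold change was 0.11 for females and -0.04 for males. The most abundant, the adiponectin receptor *Adipor2*, had 15838 ± 2904 (SD, n = 5) in female WT mice, 18039 ± 5751 (SD, n = 5) in female U9-KO mice, 12073 ± 3474 (SD, n = 3) in male WT mice and 15970 ± 3313 (SD, n = 4) in male U9-KO mice, and *Hspa5*, a chaperone that binds vaspin at the cell surface, followed. *Klb*, the co-receptor of FGF21, ranged from 1458 to 1902 in WT males and from 2078 to 2757 in U9-KO males (log2 fold change 0.45, SE 0.12, adjusted p = 0.612), with its ligand at 6 or less. *Hspa5* ranged from 9636 to 10403 in WT and from 10964 to 13000 in U9-KO males (0.25, SE 0.09, adjusted p = 0.612). The apelin receptor *Aplnr* had the smallest p in females, with 0.39 on the log2 scale (SE 0.27, adjusted p = 1).

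Of 6 proteins that fold and release adiponectin, 0 had an adjusted or unadjusted p under 0.05 in either sex, with medians of -0.02 in females and 0.06 in males. The chaperones *Calr* and *Canx* were the most abundant, and *Calr* had log2 fold changes of -0.11 (SE 0.18) in females and 0.15 (SE 0.08, adjusted p = 0.676 in limma's test) in males. *Ero1l*, an oxidase of the endoplasmic reticulum, had 0.08 (SE 0.08) in females. Of 9 enzymes around *Nampt* that make or use NAD or its precursors, 0 were called after adjustment, with medians of 0.01 and -0.07. Before it 0 passed 0.05 in females. In males 1 was higher and 1 lower in U9-KO mice at that threshold, against 3.51% and 4.09% of all genes. *Nnmt*, which consumes the substrate of NAMPT, lay between 1113 and 2328 in females and between 3660 and 4818 in males. Like *Nampt*, it thus had every male above every female. Of these 9 enzymes 1 had all males above all females, 1 had all males below and 7 overlapped. Over all genes the shares were 2.66% above and 9.12% below. *Sirt1*, an NAD-dependent deacetylase, was between 459 and 662 in all 17 mice. *Nmnat3* in males (log2 fold change 0.40, SE 0.15, adjusted p = 0.614) and *Nadsyn1* in females (0.22, SE 0.13, adjusted p = 1) had the smallest p.

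Of 10 C1q and TNF relatives of adiponectin, 9 were tested in females and 8 in males and 0 were called, with medians of -0.17 and -0.13. Before adjustment 1 was lower in U9-KO females at 0.05, where 2.23% of all genes passed in either direction, and 0 passed in males. *C1qtnf12* and *C1qtnf9* were the most abundant, at means of 921.6 and 701 in WT females and 1301 and 1315 in WT males. *C1ql3*, with the smallest p in females, was between 1 and 6 counts, and *C1qtnf3*, with the smallest in males, had -0.42 on the log2 scale (SE 0.22, adjusted p = 0.669 in limma's test). Of 20 other proteins that fat secretes, 18 were tested in each sex and 0 were called after adjustment, with medians of -0.05 and -0.18. Before it 0 passed 0.05 in females. In males 1 was higher and 2 were lower in U9-KO mice at that threshold, against 3.51% and 4.09% of all genes. The most abundant was *Cfd*, the complement factor adipsin, at 169207 ± 34551 (SD, n = 5) in WT females against 206716 ± 81947 (SD, n = 5) in U9-KO females, followed by *Igf1*, a growth factor, which differed by 0.07 (log2, SE 0.18, adjusted p = 1) between the female groups and by 0.36 (SE 0.15, adjusted p = 0.629) between the male ones. *Fbn1*, the precursor of asprosin, had -0.35 (SE 0.20, adjusted p = 1) in females and *Metrnl* had -0.42 (SE 0.17, adjusted p = 0.629) in males.

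Side by side in the sexes, without a test, the leptin receptor *Lepr* lay opposite to its ligand, between 508 and 993 in females against 102 to 183 in males, and *Fgfr1*, a receptor of FGF21, lay between 3263 and 6116 in females against 6746 to 8297 in males. Both were chosen after their values were seen. Of the 19 receptors and partners 2 had all males above and 3 all males below all females, against the 2.66% and 9.12% of all genes given above.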

How the data were processed

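The libraries were directional and selected with oligo(dT). The authors trimmed reads with trim_galore, aligned them with STAR 2.7.3a to GRCm38, counted them per gene with summarizeOverlaps (Union) and used DESeq2 1.28.1. Each deposited value is a score: read counts of a gene that the authors scaled by the library's size factor and rounded, so no count model was used. In 5 of 17 libraries a whole number from 1 to 12 never occurs, and reads were not recovered. A series-wide table was not used.

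GENCODE M21 named 55141 of 55401 identifiers. All 158 genes of the 13 lists matched, 2 through a RefSeq synonym. Tests used limma 3.58.1 (R 4.3.3, lmFit and eBayes with trend) on log2(value + 1), with Benjamini-Hochberg adjustment and a threshold of 0.05. Genes with a total of at least 10 were tested, in females, in males and for their difference. The code was also run on simulated counts with the same extra spread set for all genes and no ovary-rich mice. That setting is unlike these data, so the run does not show how the tests do on them. Whether replicates were separate cages or litters is not given, so p-values measure the spread between mice. Correlations used two-sided permutation tests, with 100000 resamples in 10 females and all orders in 7 males or 8 females. Python 3.11.15 and numpy 2.4.6 were used.

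The members, lists and tests were chosen with earlier results of these data known. Named were all 10 members, *U90926*, of each list of secreted proteins, receptors, partners and enzymes the 2 most abundant and the 1 with the smallest p in each sex, the 3 genes most like *Adipoq*, *Lep*, *Retn* and *Sfrp5* (1 of them is not reported here), and the most abundant gene of each cell marker list. Marker lists covered fat cells, ovary and oviduct, epididymis and testis, mesothelium, macrophages, lymphocytes, endothelium, and fibroblasts and progenitors. Alternatives were no filter, a mean of at least 10, a pseudocount of 0.5, no trend, TMM scaling, a replicate block, 1 fit of all groups, centring on fat cell genes and leaving out each mouse. Fits and relations without the ovary-rich females were added after the data were seen, and the pairs too.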

Additional observations from a re-analysis of the deposited data

Results flagged for a closer look

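Over the 8 abundant members and the groups of 4 or 5 mice, 24 groups were searched for a mouse far from the others by Dixon's test at the 95% level, and 0 had one, where chance gives about 1.2. The 3 WT males, among them WT male 2 with its *Sfrp5* count of 1640, are too few for this test.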

How the results depend on the processing

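The count of adipokine genes with an adjusted p under 0.05 was 0 under every alternative in females, in males and for the difference between the sexes. Over all genes the count was 0 in limma's main test, and it was 2 in females, 16 in males and 3 for the difference without a filter, and 1 in females and 1 in males without the trend. With 1 mouse left out it stayed at 0 in females and for the difference and lay between 0 and 71 in males (71 without WT male 1).

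Of 158 member fold changes under other settings, 4 turned in sign, all in males and small: with centring on fat cell genes *Adipoq* to -0.041, *Nampt* to -0.0083 and *Rarres2* to -0.093, and with the replicate block *Rarres2* to -0.0027. Centring moved the median of all genes by -0.17 in females and -0.12 in males. With 1 mouse left out, 14 of 162 turned, in females within -0.25 to 0.17 for *Adipoq* and -0.57 to 0.32 for *Serpina12*, and in males within -0.11 to 0.18 for *Adipoq*, -0.17 to 0.14 for *Lep*, -0.084 to 0.36 for *Retn*, -0.082 to 0.14 for *Rarres2* and -2.82 to 0.23 for *Sfrp5*. Deviations from the group mean in same-numbered mice of the 2 genotypes had r from -0.464 to 0.216 (females) and from -0.091 to 0.060 (males). These few values were not set against those of differently numbered mice, so they cannot settle whether the numbers pair the mice. With the replicate block 0 genes passed the threshold in either sex.

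By Pearson's r, 5 members in place of 3 were related to the adipocyte score without the ovary-rich females, and 0 in place of 1 to the ovary score. By Spearman's rho the change with the adipocyte score went the other way. *Adipoq*, *Retn* and *Lep* passed the threshold by rho with all females and not without the ovary-rich ones. *Rbp4* and *Nampt* passed by rho in both sets. The share of all genes that would pass was not computed. With 1 mouse left out, the pairs past the threshold numbered 1 to 4 in females and 0 to 4 in males, and the cause was not tested. With fewer mice the permutation tests have fewer orders. The depth limits *Serpina12* and *Fgf21*, at 11 normalized counts or less in every mouse.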

Other observations

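The other cell types of the tissue were described through marker lists, and limma called 0 of their genes in either sex. All 10 macrophage genes had negative log2 fold changes in both sexes, with medians of -0.17 in females and -0.36 in males, and 4 had an unadjusted p under 0.05 in males, where 4.09% of all genes were lower at that threshold. *Lyz2*, the lysozyme of macrophages, ranged from 12198 to 20256 in WT and from 8256 to 10923 in U9-KO males (log2 fold change -0.66, SE 0.16, adjusted p = 0.612). Of 10 lymphocyte genes 10 were negative in males (median -0.95), 5 of them with an unadjusted p under 0.05, and 8 were positive in females (median 0.19), 2 of them with such a p against 2.23% of all genes in either direction. They were led by *Jchain*, the joining chain of antibodies, with 113 to 341 in WT and 576 to 3471 in U9-KO females (2.54, SE 0.53, adjusted p = 1).

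Endothelial genes, led by *Cdh5*, had a median of 0.15 with 10 of 10 positive in females and of -0.14 with 8 of 10 negative in males. Mesothelial genes, led by *Upk3b*, had medians of -0.11 and 0.00, and fibroblast and progenitor genes, led by *Col3a1*, of -0.02 and -0.07. The fat cell genes had medians of 0.04 and 0.11, with 9 of 18 and 15 of 18 positive. Ovary and oviduct genes had medians of -0.27 over 16 genes in females and 0.34 over the 11 tested in males, and of the epididymis and testis genes, led by *Cst8*, 4 passed the filter in females and 1 in males.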
